A study of Mus musculus with 18 samples.

Results

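The miR-379/410 cluster is a run of microRNA (miRNA) hairpins in the imprinted Dlk1-Dio3 domain of mouse chromosome 12. The 59 mature miRNAs described here come from 33 of its hairpins and are all of its listed strands, apart from those of miR-379, miR-411 and miR-409, with at least 20 reads summed over the 18 libraries. They were chosen by hairpin name and read sum from 1841 listed mature miRNAs, of which 1043 reached that sum. A further 6 strands of 35 named hairpins fell short: miR-679-5p had 16 reads, miR-494-5p 11 and miR-1197-5p 4, and miR-453, miR-654-3p and miR-654-5p had 0. Just inside the minimum lay miR-1193-5p with 23 reads and miR-758-5p with 39.

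Genes of this domain are expressed from 1 parental chromosome, and the miRNAs of the cluster are made from the maternal one. A hairpin is processed into a duplex of a 5p and a 3p arm, of which 1 is usually loaded into Argonaute as the guide while the other is mostly discarded. The guide then pairs with target RNAs mainly through its seed, bases 2 to 8. The cluster is known for its expression in brain, and miR-134-5p in particular for limiting the size of dendritic spines in hippocampal neurons.

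Small RNAs of 18 to 32 nt were sequenced from brain tissue of 1-month-old male C57BL/6J mice, with 3 biological replicates in each of 6 groups. Cerebellum came from WT mice, from CyrKO mice that lack the long noncoding RNA Cyrano, from Cdr1as671 mice with an 18-nt deletion of the miR-671 site in the circular RNA Cdr1as, and from CyrKOCdr1as671 double mutants. Hippocampus came from WT and CyrKO mice. Cyrano is known to direct the destruction of miR-7, and miR-671 to direct slicing of Cdr1as, so the comparisons ask what happens to the cluster when either branch is broken. All are whole tissues, in which fewer cells of a type and less RNA per cell cannot be told apart.

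Each library held 8591172 to 15305829 miRNA reads, and levels are given as CPM, the reads of a miRNA per 1000000 miRNA reads of its library. The tissue labels matched defining markers: miR-206-3p stood at 790 to 1232 CPM in cerebellum and 3.97 to 6.75 CPM in hippocampus, and 3 hippocampus and forebrain miRNAs summed to 1911 to 2340 and 20602 to 23137 CPM. Red-cell miRNAs (miR-451a, miR-144-3p and miR-144-5p) summed to 783 and 603 CPM in Cdr1as671 replicates 1 and 2, below the 5405 to 32949 CPM of the other 10 cerebellum libraries. In hippocampus the same 3 summed to 2583 to 3574 CPM.

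The hairpins span chr12:109710638-109743795 of GRCm38, 33.2 kb, on the plus strand except miR-299b, which lies on the minus strand over miR-299a. By GENCODE M21, 12 of the 35 hairpins lie within the long noncoding RNA gene Mirg (chr12:109729764-109749460), 8 in exons and 4 in introns. The other 23 lie in no annotated gene on their strand, with genes of small RNAs left out. RefSeq (GRCm38.p6) held a mature sequence for 55 of the 59 members, 19 to 25 nt long. Their 55 seeds were all different. Some of the members were nonetheless close relatives, and these 4 pairs are shown because they differ from each other at the fewest positions, so that their reads are the easiest to confuse. Capitals mark the seed.
miR-300-3p: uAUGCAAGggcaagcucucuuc
miR-381-3p: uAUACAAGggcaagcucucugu
miR-495-3p: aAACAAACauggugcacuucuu
miR-543-3p: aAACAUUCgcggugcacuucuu
miR-376a-3p: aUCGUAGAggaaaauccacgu
miR-376b-3p: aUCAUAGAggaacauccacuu
miR-154-3p: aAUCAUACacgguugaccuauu
miR-369-3p: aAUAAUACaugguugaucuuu

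Compared from the first base, miR-300-3p and miR-381-3p differed at 3 of 22 positions and miR-376a-3p and miR-376b-3p at 3 of 21, with 1 difference in the seed of each pair. miR-154-3p and miR-369-3p differed at 4 of 21 positions, 1 of them in the seed, and miR-495-3p and miR-543-3p at 4 of 22, 2 of them in the seed. The 21 bases of miR-299b-5p all lie within miR-299a-5p, so reads of the shared letters cannot be assigned to 1 strand of the locus.
miR-299a-5p: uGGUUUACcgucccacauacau
miR-299b-5p: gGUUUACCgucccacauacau

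The members made up 1.26% ± 0.05 (SD, n = 3) of miRNA reads in WT cerebellum and 3.06% ± 0.12 (n = 3) in WT hippocampus. Without Cyrano the shares were 1.28% ± 0.06 and 3.06% ± 0.17 (n = 3 each), and in the cerebellum of Cdr1as671 and double-mutant mice they were 1.25% ± 0.04 and 1.20% ± 0.03 (n = 3 each). The 12 cerebellum libraries ranged from 1.17% to 1.32% and the 6 hippocampus libraries from 2.90% to 3.24%, with no overlap between the tissues.

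Members differed in level by 4 orders of magnitude, from a mean over the 18 libraries of 1902 CPM for miR-376a-3p to 0.117 CPM for miR-1193-5p. Means exceeded 1000 CPM for 7 members, lay between 100 and 1000 CPM for 22, between 10 and 100 CPM for 18, and at or under 10 CPM for 12. In order, the 10 most abundant were miR-376a-3p (1902 CPM), miR-300-3p (1513 CPM), miR-487b-3p (1284 CPM), miR-495-3p (1192 CPM), miR-369-3p (1171 CPM), miR-154-5p (1101 CPM), miR-381-3p (1093 CPM), miR-382-5p (982 CPM), miR-410-3p (860 CPM) and miR-541-5p (759 CPM). Together these 10 supplied 66.5% ± 0.4 (SD, n = 3) of the members' reads in WT cerebellum and 61.4% ± 1.3 (n = 3) in WT hippocampus.

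The order of levels was not the same in both tissues. In WT cerebellum miR-300-3p led with 1201, 1210 and 1122 CPM, ahead of miR-381-3p with 995, 1120 and 979 CPM, miR-495-3p with 1034, 1050 and 923 CPM and miR-376a-3p with 999, 944 and 951 CPM. The last 3 overlapped in their libraries and so had no clear order. In WT hippocampus miR-376a-3p led with 4463, 4037 and 3431 CPM, above every library of miR-369-3p, miR-487b-3p and miR-300-3p, whose values ran from 2088 to 2369 CPM and overlapped one another. There miR-381-3p, with 1077, 1023 and 1144 CPM, stood below all of the other 9.

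**Figure D1:**
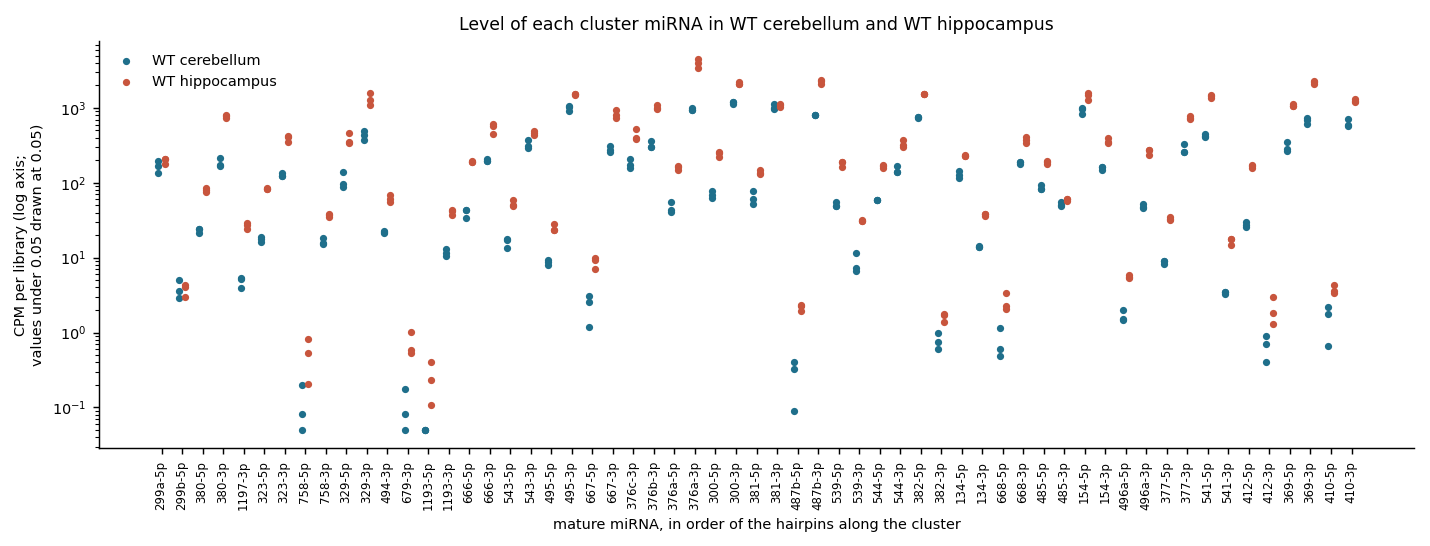
CPM of each of the 59 members (log axis) in the 3 WT cerebellum and 3 WT hippocampus libraries, 1 point per library, ordered along the cluster; values under 0.05 CPM are drawn at 0.05. Most members sit higher in hippocampus, while miR-381-3p, miR-299a-5p and miR-299b-5p overlap between the tissues.

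The cluster was broadly higher in hippocampus. Of the 56 members with enough reads to test, 48 were higher and 4 lower in WT hippocampus than in WT cerebellum (edgeR's quasi-likelihood test, Benjamini-Hochberg adjusted p below 0.05 over all 746 miRNAs tested). Over all miRNAs tested, 37.5% were higher and 32.4% lower. The members' median log2 change was 1.02, against 0.03 over all miRNAs. In CyrKO mice, whose libraries are separate, 48 members were higher and 3 lower, against 38.9% and 33.2% of all miRNAs, with a median of 0.95 against 0.10. All 6 arms of miR-379, miR-411 and miR-409 were higher in both genotypes (median 1.12 in WT), and so were 24 of 25 (WT) and 23 of 25 (CyrKO) strands of the neighbouring imprinted hairpins (medians 0.74 and 0.82). miR-1193-5p, miR-679-3p and miR-758-5p were too low to test.

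The size of the tissue difference varied over the members. miR-412-5p stood at 27.3, 25.6 and 29.7 CPM in WT cerebellum and at 170, 158 and 173 CPM in WT hippocampus, a log2 change of 2.06 ± 0.09 (SE, adjusted p = 9.8e-12), and it rose by 2.10 ± 0.09 in CyrKO. miR-496a-3p stood at 51.8, 47.8 and 45.5 CPM in WT cerebellum and at 274, 238 and 276 CPM in WT hippocampus, a log2 change of 1.89 ± 0.10 (adjusted p = 7.8e-11). miR-376a-3p rose by 1.49 ± 0.12 on the log2 scale in WT (adjusted p = 1.4e-08). For each of these 3 the hippocampus libraries all lay above the cerebellum libraries.

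Among the other large rises in WT were miR-1197-3p (log2 change 1.94), miR-541-3p (1.76), miR-666-5p (1.71), miR-323-5p (1.67), miR-380-3p (1.51) and miR-667-5p (1.37). miR-487b-5p had a fitted change of 2.43 ± 0.43, from a mean of 0.271 CPM in WT cerebellum to 2.18 CPM in WT hippocampus. It, miR-382-3p, miR-412-3p and miR-668-5p fell below the read minimum in cerebellum and were tested only because of their hippocampus reads, so a rise in them follows in part from the filter. Of the 47 members with a mean of at least 10 CPM, which leaves out these 4, 41 were higher and 3 lower in each genotype. The shares of all miRNAs given above also cover sparser ones, so they are not a matched background for this count. The mean of at least 10 CPM covers all 18 libraries of both tissues, so it does not remove the selection through hippocampus reads. For example, miR-1197-3p, with means of 4.81 CPM in WT cerebellum and 26.9 CPM in WT hippocampus, reaches it through hippocampus. In CyrKO the sparse miR-412-3p and miR-382-3p, tested through their hippocampus reads, had fitted changes of 2.27 and 2.11, beside rises of miR-1197-3p (2.21), miR-496a-3p (1.78), miR-666-5p (1.76), miR-323-5p (1.51), miR-377-5p (1.47), miR-380-3p (1.45) and miR-369-5p (1.43). Of the most abundant members, miR-369-3p rose by 1.16 and miR-541-5p by 1.18 in WT. There miR-487b-3p rose by 0.94, and miR-382-5p, miR-410-3p and miR-300-3p by 0.48, 0.45 and 0.31. The spine regulator miR-134-5p rose by 0.31 ± 0.10 in WT (adjusted p = 0.011) and 0.39 ± 0.10 in CyrKO (adjusted p = 0.0025).

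A few members went the other way, and they did so relative to the other miRNAs of the library rather than in their share of reads. On the scaling used (TMM, which centres the bulk of miRNAs), miR-381-3p was lower in WT hippocampus by a log2 change of -0.48 ± 0.10 (adjusted p = 3.0e-04), miR-485-3p by -0.33 ± 0.10 (0.0086), miR-299a-5p by -0.29 ± 0.11 (0.035) and miR-299b-5p by -0.59 ± 0.24 (0.040). With library totals as the only scaling, miR-381-3p, miR-485-3p and miR-299a-5p turned to 0.069, 0.22 and 0.26 and miR-299b-5p to -0.036. That scaling moved the median of all miRNAs by 0.55 in WT and 0.58 in CyrKO, to 0.58 and 0.68. With it 54 members were higher and 0 lower in WT, and 52 and 0 in CyrKO. How many of all miRNAs were called with that scaling is not given, so these counts have no background beside them. In CPM, miR-485-3p stood at 54.9, 50.0 and 49.2 in WT cerebellum and 61.5, 56.8 and 61.5 in WT hippocampus. In CyrKO miR-485-3p, miR-381-3p and miR-299a-5p were lower on the TMM scale (-0.47, -0.42 and -0.32), and library totals alone turned them to 0.11, 0.16 and 0.25. Without WT cerebellum replicate 1, miR-299a-5p (-0.08, adjusted p = 0.48), miR-299b-5p (-0.27, 0.36) and miR-485-3p (-0.20, 0.085) were no longer called in WT. The calls for miR-299a-5p and miR-299b-5p in WT failed in 10 and 9 of the 12 fits with 1 library left out.

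The direction of each call was shared by both genotypes for 50 members, 47 higher and 3 lower in both. The WT and CyrKO changes correlated across the 47 members at or above 10 CPM (Pearson r = 0.96, Spearman rho = 0.94), as a description over miRNAs that share their libraries. Neither the shared calls nor the correlation is given over all miRNAs, so they do not set the members apart. By position, the 22 tested members in Mirg had a median log2 change of 0.86 in WT and 0.95 in CyrKO and the 34 upstream 1.08 and 0.93, so their order was not the same in both genotypes, and the correlation with order along the cluster was 0.05 (Pearson, n = 56). The 26 tested 5p arms had a median of 1.21 and the 30 tested 3p arms 0.92. The red-cell miRNAs, lower in hippocampus, and choroid plexus miRNAs, at 3680 to 16755 CPM in hippocampus and 8537 to 10469 CPM in WT and CyrKO cerebellum, moved with tissue or library as well. Vessel miRNAs summed to 11308 to 14796 CPM in hippocampus and 7867 to 8889 CPM in WT and CyrKO cerebellum, and immune miRNAs (4 of 6 listed) to 2980 to 3617 and 2104 to 2782 CPM. Neuron miRNAs went the other way, with 278864 to 310237 CPM in hippocampus and 314466 to 378805 CPM in WT and CyrKO cerebellum, and oligodendrocyte miRNAs overlapped at 9564 to 15623 and 6589 to 11006 CPM. The part of these cells in the differences was not tested.

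**Figure D2:**
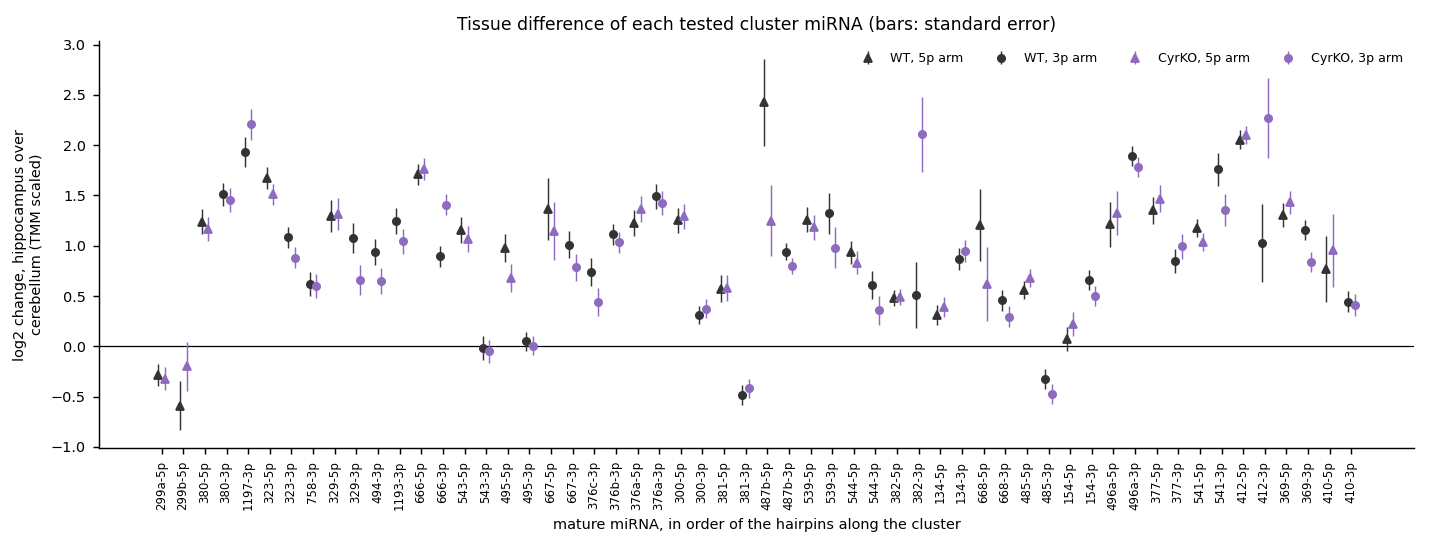
Log2 change of hippocampus over cerebellum (TMM scaled, bars give the standard error) for the 56 tested members in WT and CyrKO, ordered along the cluster, with 5p arms as triangles and 3p arms as circles. Most points lie near 1, and miR-381-3p and miR-485-3p lie below 0 in both genotypes while their 5p partners lie above it.

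In WT, 8 tested members were not called higher, and 6 of them had a tested partner arm. The partner was higher in all 6 cases, as were 48 of all 56 tested members. miR-543-3p changed by -0.02 and miR-543-5p by 1.16, miR-495-3p by 0.05 and miR-495-5p by 0.98, miR-381-3p by -0.48 and miR-381-5p by 0.58, miR-485-3p by -0.33 and miR-485-5p by 0.56, and miR-154-5p by 0.07 and miR-154-3p by 0.66. miR-382-3p, at 0.77 and 1.62 CPM in the 2 tissues, changed by 0.51 (adjusted p = 0.17), and miR-382-5p by 0.48.

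The ratio of 5p to 3p reads needs no scaling between libraries. Over the WT and CyrKO libraries of both tissues, 19 hairpins had a mean of at least 30 reads on both arms. In every library the 3p arm exceeded the 5p arm for 14 of them, and the 5p arm exceeded the 3p arm for 5 (miR-134, miR-154, miR-485, miR-539 and miR-541). The arms were most even for miR-485, miR-369 and miR-544, whose log2 ratios in WT cerebellum were 0.76 ± 0.16, -1.18 ± 0.11 and -1.34 ± 0.14 (SD, n = 3). They were least even for miR-667, at -7.03 ± 0.80, and miR-541, at 6.95 ± 0.04 (n = 3 each).

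The arm ratio differed between the tissues for 15 of these 19 hairpins (exact two-sided permutation test of tissue labels within genotype, 400 arrangements, adjusted over 172 hairpins of the whole table). Of all 172 hairpins, 45.3% passed. The 5p share was higher in hippocampus for 10 hairpins and lower for 5, and the median difference without regard to sign was 0.48 for the members' hairpins and 0.30 for all. The smallest p that the permutations can give, 0.005, was reached by 11 of the 15, so it ranks none of them.

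miR-543 had the largest shift: its log2 ratio was -4.32 ± 0.24 in WT cerebellum and -3.15 ± 0.21 in WT hippocampus, -4.23 ± 0.18 and -3.13 ± 0.12 in CyrKO (SD, n = 3 each), a mean difference of 1.14 (adjusted permutation p = 0.015). The counts behind it were 17.7, 13.4 and 17.3 CPM of miR-543-5p in WT cerebellum and 50.4, 48.6 and 58.6 CPM in WT hippocampus, while miR-543-3p went from 372, 306 and 288 CPM to 495.97, 464 and 440 CPM. Both arms had more CPM in hippocampus, and the 5p arm more so.

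miR-381 shifted by 1.04, from -4.03 ± 0.37 to -2.96 ± 0.16 in WT (n = 3 each). Its 3p arm stayed within the same range, 979 to 1120 CPM in WT cerebellum and 1023 to 1144 CPM in WT hippocampus, while its 5p arm went from 77.5, 52.2 and 61.5 CPM to 150, 136.9 and 130 CPM. The shift was 1.02 for miR-485 (arms miR-485-5p and miR-485-3p), 0.94 for miR-300, 0.80 for miR-495, 0.61 for miR-323 and 0.59 for miR-666, with an adjusted permutation p of 0.015 for each. Here miR-300-5p rose by 1.25 and miR-300-3p by 0.31 on the log2 scale in WT, miR-323-5p by 1.67 and miR-323-3p by 1.08, and miR-666-5p by 1.71 and miR-666-3p by 0.90. Of the close relatives, miR-381-3p and miR-300-3p are both the abundant arm of a hairpin whose 5p arm gained in hippocampus, and so are miR-495-3p and miR-543-3p. In another close pair the ratios shifted in opposite directions, that of miR-154 by -0.42 and that of miR-369 by 0.38. miR-376a (-0.16) did not pass, and miR-376b had no ratio to test, so the ratios of that pair could not be compared. In level, miR-376a-3p and miR-376b-3p both rose in WT hippocampus, by 1.49 and 1.11 on the log2 scale.
miR-543-5p: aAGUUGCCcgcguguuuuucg
miR-381-5p: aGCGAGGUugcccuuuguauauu

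Shifts towards the 3p arm in hippocampus were smaller than the leading 5p shifts, those of 0.59 and more. They were -0.55 for miR-134 (adjusted permutation p = 0.015), whose 3p arm rose by 0.87 and 5p arm by 0.31 in WT, and for miR-496a (0.044). Next came -0.45 for miR-541 (0.025), -0.42 for miR-154 (0.044) and -0.28 for miR-380 (0.015). miR-496a met the minimum of 30 reads only through hippocampus. Its 5p arm had means of 1.66 CPM in WT cerebellum and 5.61 CPM in WT hippocampus. miR-377, miR-544 and miR-369 passed with 0.48, 0.39 and 0.38. miR-329 (0.45, adjusted permutation p = 0.069), miR-667 (0.42, 0.26), miR-376a (-0.16, 0.26) and miR-539 (0.03, 0.86) did not pass. In 12 of the 15 hairpins it was the rarer arm that gained in hippocampus, as it was in 55 of the 78 hairpins that passed in the whole table (70.5%). With any 1 library left out 12 to 14 hairpins passed. miR-380 was lost without any 1 of the 6 hippocampus libraries, and so were miR-154 and miR-496a. miR-154 was also lost without any WT cerebellum library or CyrKO cerebellum replicate 2 or 3, and miR-496a without WT cerebellum replicate 3 or CyrKO cerebellum replicate 1 or 2.

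**Figure D3:**
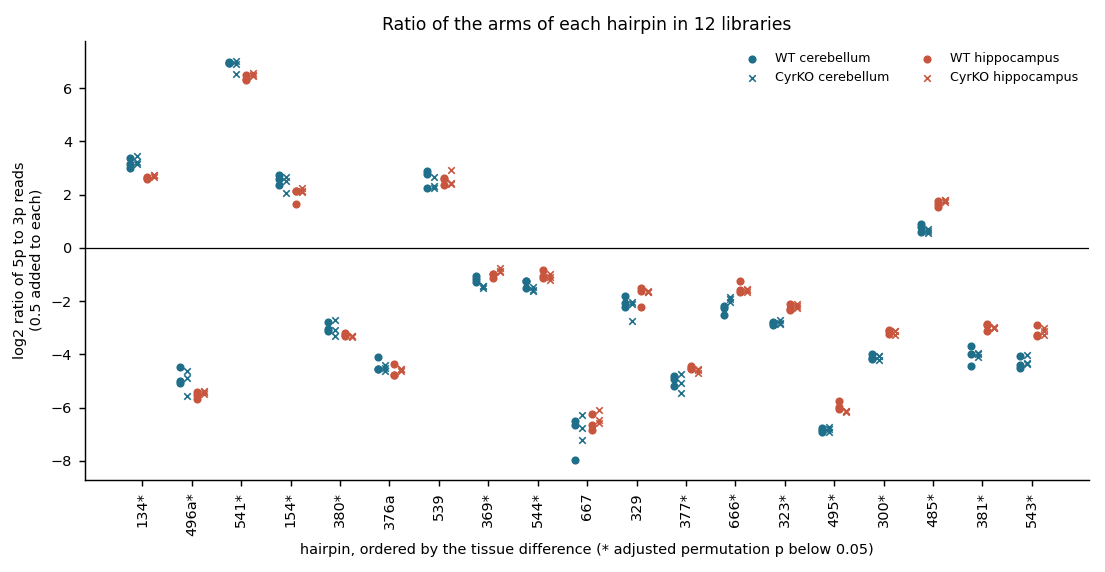
Log2 ratio of 5p to 3p reads for 19 hairpins in the 12 WT and CyrKO libraries, 1 point per library, ordered by the tissue difference; 0 marks equal arms and asterisks mark an adjusted permutation p below 0.05. At the right, hippocampus libraries of miR-485, miR-381 and miR-543 all sit above the cerebellum libraries.

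Loss of Cyrano left no detected change in any tested member. In cerebellum 0 of 52 members were called (edgeR; 1 had an unadjusted p below 0.05, and DESeq2 called 0), against 0.898% of all miRNAs tested. In hippocampus it was 0 of 56 (edgeR; 2 at an unadjusted p below 0.05, DESeq2 0) against 0.57%. The members' median log2 change was 0.03 in cerebellum and -0.03 in hippocampus. For the 47 members at or above 10 CPM the standard errors ran from 0.08 to 0.25 in cerebellum and from 0.06 to 0.14 in hippocampus. By contrast, 3 of the 6 arms of miR-379, miR-411 and miR-409 were higher in CyrKO cerebellum and 1 in CyrKO hippocampus. In the cerebellum fits miR-382-3p, miR-412-3p, miR-487b-5p and miR-668-5p were also too low to test.

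The nearest to a change in cerebellum was miR-666-3p, with 193, 205 and 197 CPM in WT and 155.01, 156.02 and 153.97 CPM in CyrKO. The 2 groups did not overlap, but the log2 change of -0.35 ± 0.09 missed the threshold (edgeR adjusted p = 0.20). miR-369-3p (0.22 ± 0.10) and miR-758-3p (0.27 ± 0.12) had adjusted p = 1.0 each. In hippocampus the lowest p values belonged to miR-758-3p (0.25 ± 0.11), miR-410-5p (-0.51 ± 0.22, near 3 CPM) and miR-494-3p (-0.24 ± 0.11), all with adjusted p = 0.85.
miR-666-3p: gGCUGCAGcgugaucgccugcu

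The effect of Cyrano loss was also compared between tissues, between Cdr1as backgrounds and as an average over both backgrounds. For the difference between tissues 0 of 56 members passed (edgeR; 3 at an unadjusted p below 0.05, DESeq2 0), against 0.402% of all miRNAs. The lowest p values were those of miR-666-3p (0.51 ± 0.14, adjusted p = 0.35), miR-382-3p (1.59 ± 0.52, 0.76) and miR-369-3p (-0.32 ± 0.14, 0.94). Of these, miR-382-3p averaged only 0.77 CPM in WT and 0.30 CPM in CyrKO cerebellum and was tested through its hippocampus reads. Between the double mutant and Cdr1as671 cerebellum 0 of 52 members differed (edgeR; 4 at an unadjusted p below 0.05, DESeq2 0), against 0.727%, with miR-369-3p (0.43 ± 0.15), miR-544-3p (0.61 ± 0.22) and miR-376a-3p (0.31 ± 0.14) lowest in p. Without Cdr1as671 replicate 3, these 3, miR-544-5p and miR-154-3p were called higher, 5 members in all. That replicate is the 1 library of its group with an ordinary red-cell level. How many of all miRNAs were called without it is not given.

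Averaged over both backgrounds, Cyrano loss changed 0 of 52 members (edgeR; 3 at an unadjusted p below 0.05, DESeq2 0), against 0.872%, with miR-369-3p at 0.33 ± 0.10, miR-544-3p at 0.41 ± 0.16 and miR-485-5p at -0.15 ± 0.07. Without Cdr1as671 replicate 3, miR-369-3p was called (0.46, adjusted p = 0.0024). The interaction of Cyrano with the Cdr1as site passed for 0 of 52 members (edgeR; 2 at an unadjusted p below 0.05), against 0.145%. miR-666-3p was nearest, at 0.46 ± 0.11 (adjusted p = 0.18). DESeq2 called it (adjusted p = 0.0080), as did edgeR without Cdr1as671 replicate 3 (0.53, 0.026). miR-1197-3p (0.78 ± 0.35) and miR-299b-5p (0.65 ± 0.36) followed.

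**Figure D4:**
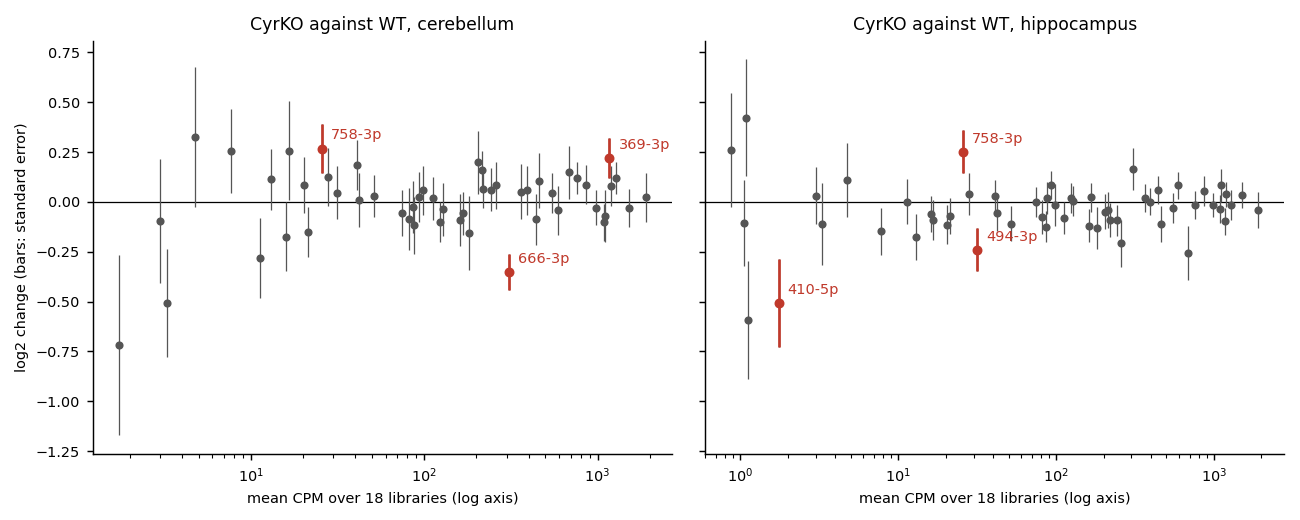
Log2 change of CyrKO over WT (bars give the standard error) against mean CPM over the 18 libraries (log axis) for the tested members, cerebellum on the left and hippocampus on the right. The 3 members with the lowest p are red; none passed the threshold, and the scatter widens below 10 CPM.

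Arm ratios gave the same count. Averaged over both Cdr1as backgrounds, Cyrano loss changed the ratio of 0 of 19 hairpins (exact permutation test, 2 at an unadjusted p of at most 0.05), against 0% of 172. The smallest p of this permutation test, 0.005, passes the adjustment only if many hairpins reach it together, so this 0 says little. Against WT, CyrKO libraries did not overlap for 2 hairpins in cerebellum (miR-369 and miR-666), where 11.6% of all hairpins did not. In hippocampus this held for 4 (miR-369, miR-377, miR-380 and miR-495), against 16.9%. The smallest p that 3 against 3 libraries allow in the exact test is 0.1, so these are descriptions.

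Deletion of the miR-671 site of Cdr1as went with small changes in a few members. In Cdr1as671 cerebellum 0 of 52 members were higher and 3 lower than in WT (edgeR), against 2.26% of all miRNAs called in either direction, and the members' median was -0.06 against -0.01. In the double mutant 1 was higher and 0 lower than in WT, against 2.57%. That split varied with the method: library totals alone gave 0 higher and 3 lower, DESeq2 gave 1 and 4, and 1 and 3 were called in the authors' deposited table. Against CyrKO the double mutant had 0 higher and 2 lower, against 2.33%. The Cdr1as671 to WT and double mutant to CyrKO comparisons share no library, and 39 of the 47 members at or above 10 CPM changed in the same direction in both, as did 74.7% of 439 miRNAs at that level.

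miR-496a-3p had 51.8, 47.8 and 45.5 CPM in WT, 51.2, 47.0 and 48.6 in CyrKO, 31.7, 32.2 and 30.2 in Cdr1as671 and 36.6, 33.5 and 30.2 in the double mutant. All 6 libraries with the deletion lay below all 6 with the site. Its log2 change was -0.66 ± 0.12 in Cdr1as671 (edgeR adjusted p = 0.021), -0.50 ± 0.10 in the double mutant against CyrKO (0.013) and -0.45 ± 0.11 in the double mutant against WT (0.061, or 0.029 with the replicate number as a block).

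miR-494-3p showed the same separation, with 21.3, 22.6 and 21.9 CPM in WT and 26.4, 20.1 and 21.4 in CyrKO, and 17.0, 17.1 and 12.7 in Cdr1as671 and 16.6, 14.4 and 13.04 in the double mutant. It fell by 0.57 ± 0.14 in the double mutant against CyrKO (log2, edgeR adjusted p = 0.036). Its change was -0.54 ± 0.13 in Cdr1as671 (adjusted p = 0.078) and -0.50 ± 0.11 in the double mutant against WT (0.055, or 0.042 with the block).

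miR-544-5p fell in Cdr1as671, from 59.7, 59.1 and 58.1 CPM in WT to 28.8, 34.8 and 46.1 CPM (log2 change -0.72 ± 0.16, edgeR adjusted p = 0.045). The 2 libraries poor in red-cell miRNAs were the lowest. In the double mutant it changed by -0.36 ± 0.11 (adjusted p = 0.13). miR-1197-3p fell from 5.24, 3.93 and 5.27 CPM to 1.96, 1.63 and 2.65 CPM (-1.23 ± 0.26, 0.041).

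miR-539-5p rose in the double mutant, from 49.3, 55.4 and 48.4 CPM in WT to 67.5, 62.8 and 67.0 CPM (log2 change 0.45 ± 0.09, edgeR adjusted p = 0.031). Its values in Cdr1as671 were 68.1, 64.2 and 64.6 CPM, and against CyrKO the double mutant differed by 0.36 ± 0.10 (adjusted p = 0.087).
miR-496a-3p: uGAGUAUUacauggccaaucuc
miR-494-3p: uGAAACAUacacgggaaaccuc
miR-1197-3p: uAGGACACauggucuacuucu
miR-544-5p: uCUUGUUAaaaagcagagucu
miR-539-5p: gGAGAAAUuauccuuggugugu

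These single comparisons turned on individual libraries. No share of all miRNAs is given for the refits, so their counts describe the dependence on libraries and nothing particular to the members. In Cdr1as671 against WT no member was called without WT replicate 1 or 3 or without Cdr1as671 replicate 1 or 2, and 12 (3 higher, 9 lower) without Cdr1as671 replicate 3. The red-cell miRNAs differ within the Cdr1as671 group, and with them as a covariate 0 members were called. Leaving out both poor libraries leaves 1 Cdr1as671 library, assumed to vary like the other groups, and that fit also called 0, which says nothing about the red-cell level. The double mutant against WT had 0 calls without WT replicate 1 or 3 or double mutant replicate 2 or 3, and 7 without WT replicate 2. With the replicate number as a block, 4 members were called there, miR-329-5p, miR-494-3p and miR-496a-3p lower (adjusted p = 0.026, 0.042 and 0.029) and miR-539-5p higher. Against CyrKO it had 0 calls without CyrKO replicate 1 or 3 or double mutant replicate 2 or 3, and 1 without any of WT replicates 1 to 3 or Cdr1as671 replicates 1 and 2.

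Averaged over both Cyrano states, with 6 libraries on each side, 15 of 52 members differed with the deletion (edgeR). Of these, 4 were higher and 11 lower, against 7.12% of 688 miRNAs higher and 10.2% lower. This contrast was added after the single comparisons were seen. The lower members were led by miR-496a-3p (log2 change -0.58 ± 0.07, adjusted p = 2.6e-04), miR-494-3p (-0.55 ± 0.10, 0.0015), miR-1197-3p (-0.83 ± 0.17, 0.0048) and miR-495-5p (-0.51 ± 0.11, 0.0057). With them fell miR-544-5p, miR-329-5p, miR-381-5p, miR-1193-3p, miR-543-5p, miR-376a-3p and miR-299a-5p, with log2 changes between -0.54 and -0.27. The higher members were miR-376a-5p (0.36), miR-539-5p (0.34), miR-369-5p (0.28) and miR-381-3p (0.28).

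The calls for miR-496a-3p, miR-494-3p, miR-1197-3p, miR-495-5p, miR-539-5p and miR-381-3p, 6 of the 15, held with any single library left out. The total fell to 8 without WT replicate 1, 9 without WT replicate 3, 8 without Cdr1as671 replicate 1 and 8 and 7 without double mutant replicates 2 and 3. With the red-cell covariate 4 remained: miR-494-3p, miR-495-5p, miR-496a-3p and miR-539-5p.

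**Figure D5:**
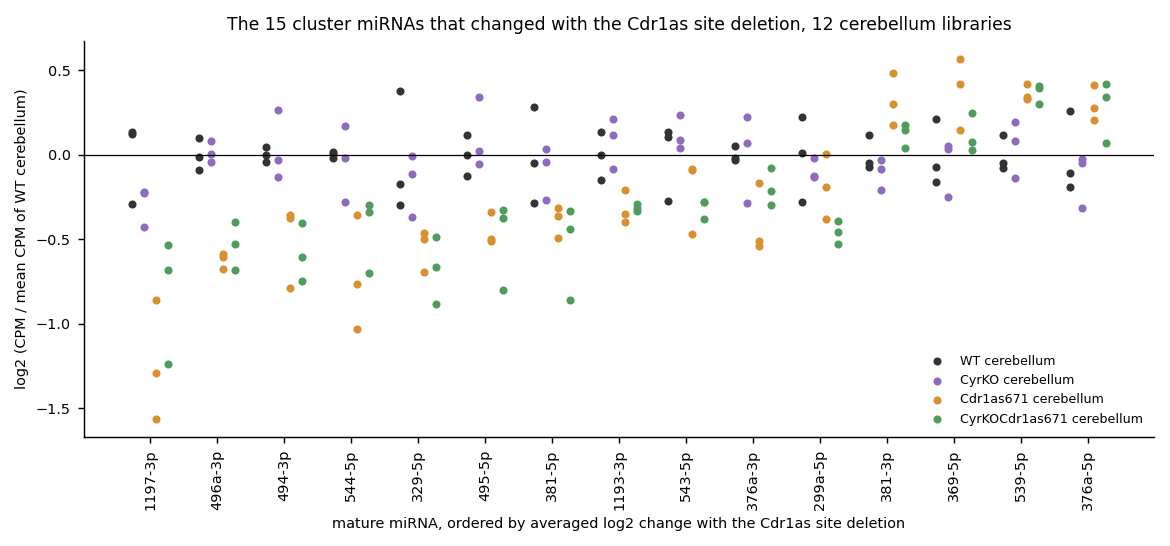
Log2 of each cerebellum library's CPM over the WT mean for the 15 members called in the averaged contrast, 1 point per library and 4 groups of 3. For miR-496a-3p and miR-494-3p the 6 libraries with the deletion lie below the 6 with the site, and for miR-539-5p above.

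The arms of 2 hairpins moved in opposite directions with the deletion. miR-381-3p was higher and miR-381-5p lower, and the hairpin's log2 ratio of 5p to 3p reads differed by -0.69 (exact permutation test within Cyrano state, 400 arrangements, adjusted p = 0.023). miR-376a-5p was higher and miR-376a-3p lower, a ratio difference of 0.66 (adjusted permutation p = 0.023). miR-369 (0.52, 0.038), miR-485 (0.40, 0.023) and miR-495 (-0.47, 0.023) passed as well. These 5 of 19 hairpins stand beside 26.2% of all 172, so the share among the members' hairpins was near the background. Without both Cdr1as671 libraries poor in red-cell miRNAs 0 hairpins passed. With 1 Cdr1as671 library left the smallest p possible is 0.0125, which passes the adjustment only if many hairpins reach it together, so this 0 says little.

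Against WT alone, Cdr1as671 libraries did not overlap in arm ratio for 6 hairpins (miR-329, miR-376a, miR-381, miR-485, miR-495 and miR-666), against 32.6% of all hairpins. Double-mutant libraries did not overlap for 5 (miR-329, miR-485, miR-495, miR-544 and miR-666), against 29.1%. The exact test of 3 against 3 libraries cannot go below 0.1 here either. In the tests of tissue and of the averaged deletion, miR-381 and miR-495 had a higher 5p share in hippocampus and a lower one with the deletion in cerebellum, and miR-369 and miR-485 a higher one in both.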

How the data were processed

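Mature miRNA read counts, raw and normalized, came from the authors' 4 deposited DESeq2 tables (version 1.10) of reads trimmed with cutadapt, per the submitters' processing notes. The aligner, the miRNA annotation and the genome build were not given in the sources used here. Raw counts were used. The tables' log2 fold changes, p-values, test scores and size-factor-normalized counts (signal) are the authors' own and served only for comparison. The members and lists were chosen with earlier results of these data known. Counts were fitted over all miRNAs with edgeR 4.0.16 in R 4.3.3 (TMM, filterByExpr with a minimum count of 10 and total of 15, quasi-likelihood F-test, Benjamini-Hochberg threshold 0.05). Mutants were fitted with their WT group, tissues over 12 libraries, and other contrasts over 12 cerebellum libraries. Arm ratios had 0.5 added to each count. Their p-values were adjusted over all 172 hairpins, not the members' alone as first planned. Named members are the 10 most abundant, those called (up to 10 a direction, by size), the 3 lowest in p where fewer than 3 were called, and the leading arm shifts. Same-numbered libraries deviated together (every r over 0.1) in 1 of 8 comparisons, double mutant against WT, and the block is given there. The tests were checked on simulated data with known changes.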

Additional observations from a re-analysis of the deposited data

How the results depend on the processing

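Alternatives were run one at a time. The 2 tissue counts and the 4 counts of 0 for CyrKO against WT (both tissues), for the double mutant against Cdr1as671 and for Cyrano loss between tissues stayed within 1.5 times under every scaling, filter, tool and block run. Cdr1as671 against WT (3 called) gave 5 with DESeq2, 1 with RLE size factors, 1 with TMM without the imprinted locus, 8 with no filter, 1 with a mean of at least 10 CPM, 9 with all 18 libraries in 1 fit, 6 with the replicate block, 5 with 12 cerebellum libraries, 0 with the red-cell covariate, and 0 without both poor libraries, a fit with 1 Cdr1as671 library that takes its spread from the other groups. The double mutant against WT (1, higher) gave 5 with DESeq2 (4 lower), 3 with library totals (all lower), 9 with no filter (6 lower), 3 with at least 10 CPM (2 lower), 2 with 18 and 2 with 12 libraries (1 lower each), 4 with the replicate block (3 lower), 3 with the red-cell covariate (2 lower) and 4 in the authors' deposited table (3 lower). Against CyrKO (2) it gave 5 with DESeq2 and 4 with 18 libraries. The interaction (0) gave 1 with DESeq2, and the averaged deletion (15) gave 4 with the red-cell covariate. Arm ratios between tissues (15) gave 0 in WT alone, in CyrKO alone and with the replicate block, where the smallest p is too large to pass, and those with the averaged deletion (5) gave 0 without both poor libraries, where 1 Cdr1as671 library is left and the smallest p, 0.0125, can hardly pass.

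With single libraries left out, calls ranged over 49 to 51 (tissues, WT), 47 to 51 (tissues, CyrKO), 0 to 12 (Cdr1as671), 0 to 7 (double mutant against WT), 0 to 3 (against CyrKO), 0 to 5 (against Cdr1as671), 7 to 17 (averaged deletion), 0 to 1 (averaged Cyrano loss) and 0 to 1 (interaction). Hairpins without overlap ranged over 2 to 4 and 4 to 9 (CyrKO, cerebellum and hippocampus), 7 to 11 (Cdr1as671) and 5 to 11 (double mutant).

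Signs turned for 3 members with library totals: miR-381-3p 0.069 (WT) and 0.16 (CyrKO), miR-485-3p 0.22 and 0.11, miR-299a-5p 0.26 and 0.25. Uncalled values near 0 also turned. miR-495-3p was -0.0094 in WT with at least 10 CPM and ranged from -0.020 to 0.15 without single libraries. In CyrKO it was -0.0462 with DESeq2, -0.0461 with RLE, -0.014 with no filter, -0.0088 with 18 libraries and -0.12 with at least 10 CPM, and ranged from -0.13 to 0.078 without single libraries. miR-154-5p in WT ranged from -0.023 to 0.22. The miR-539 arm ratio was -0.12 in WT alone and ranged from -0.066 to 0.090 without single libraries. The cause was not tested. Same-numbered libraries correlated at -0.436 to 0.454 in their deviations. With so few libraries, these correlations cannot show whether same-numbered samples were paired. Members under 10 CPM have wide errors at this depth.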
